A study of Arabidopsis thaliana with 17 samples.

Results

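The 171 probe sets described here, of 22746 measured, were chosen for a rise after salicylic acid (SA) in the npr1 sni1 ssn2 triple mutant together with small SA differences in the npr1 sni1 double mutant and the npr1 sni1 brca2a triple mutant of Arabidopsis thaliana. On the log2(intensity + 16) scale, the SA mean had to exceed the water mean of the ssn2 triple by at least 1, with both SA arrays above all 3 water arrays. In the double and in the brca2a triple the SA mean had to lie within 0.3 of the water mean in either direction. The rise was met by 496 probe sets (2.18% of those measured) and the flat condition in both other genotypes by 18669 (82.1%), and 171 met both (0.752%). These values chose the members, so the SA differences of the members are given as descriptions and carry no test.

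Whole-seedling RNA was measured on 17 Affymetrix ATH1 arrays. Plants were grown in soil under 16-hour days and, at 3 weeks of age, received 0.5 mM SA or water and were taken 16 hours later. All of them, the controls included, carried npr1 and sni1, and no plant with intact NPR1 and SNI1 is among the samples used here. The double and the brca2a triple had 3 SA and 3 water arrays each, and the ssn2 triple had 2 SA and 3 water arrays, each from an independent biological experiment per the labels. The labels give no allele numbers or number of lines per genotype. For the ssn2 samples the treatment text speaks of brca2a, while the titles and genotype entries give ssn2, and the latter were followed.

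SA is the hormone that switches on systemic defence in plants. NPR1 carries its signal to the promoters of defence genes as a co-activator, SNI1 holds those genes down, and loss of SNI1 restores SA-induced defence gene expression in npr1 plants. BRCA2A acts in homologous recombination, and suppressors of sni1 (SSN genes) were found as mutations that reverse the sni1 phenotype.

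The ssn2 arrays and the other 12 arrays were deposited in separate tables, which appear to have been normalized separately. A test of whether the SA effect of a member differed between the ssn2 triple and the other genotypes was not made for this reason, and genotype and table cannot be told apart in any level compared across them. In whole seedlings, a change in the number of cells of a type and a change in RNA per cell also cannot be told apart.

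Array medians lay between 57.2 and 61.9 intensity units. One array stood apart among the 12: the double, water replicate 2. Over all 22746 probe sets, its log2 deviation from the mean of water replicates 1 and 3 correlated at Pearson r = 0.500 with the SA difference of the ssn2 triple, across probe sets that share arrays and are not independent replicates. For the 9 arrays outside the double's water group the same r lay between -0.0764 and 0.0878. The counts and calls of members that rest on the double are therefore given with and without this array.

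Of the 171 members, 95 had a single gene in the platform annotation (95 different loci, 17 of them with a symbol in RefSeq), 1 matched several genes and 75 were not listed there. Named members below are from the 95.

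In the ssn2 triple the members' SA difference ran from 1.001 to 4.58 on the log2 scale, with a median of 1.29, or 2.44 times on that scale, and a median SE of 0.0822. Most rises were small: 51 members reached 1.5, 22 reached 2, 6 reached 3 and 2 reached 4. In the double the difference ran from -0.299 to 0.289 with a median of 0.0017, and in the brca2a triple from -0.288 to 0.298 with a median of 0.062. The lower SA array stood above the highest water array of the ssn2 triple by 0.686 to 4.48 log2 units, with a median of 1.13. Between the SA arrays of the ssn2 triple the members differed by at most 0.565 log2 units, and by over 0.5 in 4 members.

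**Figure D1:**
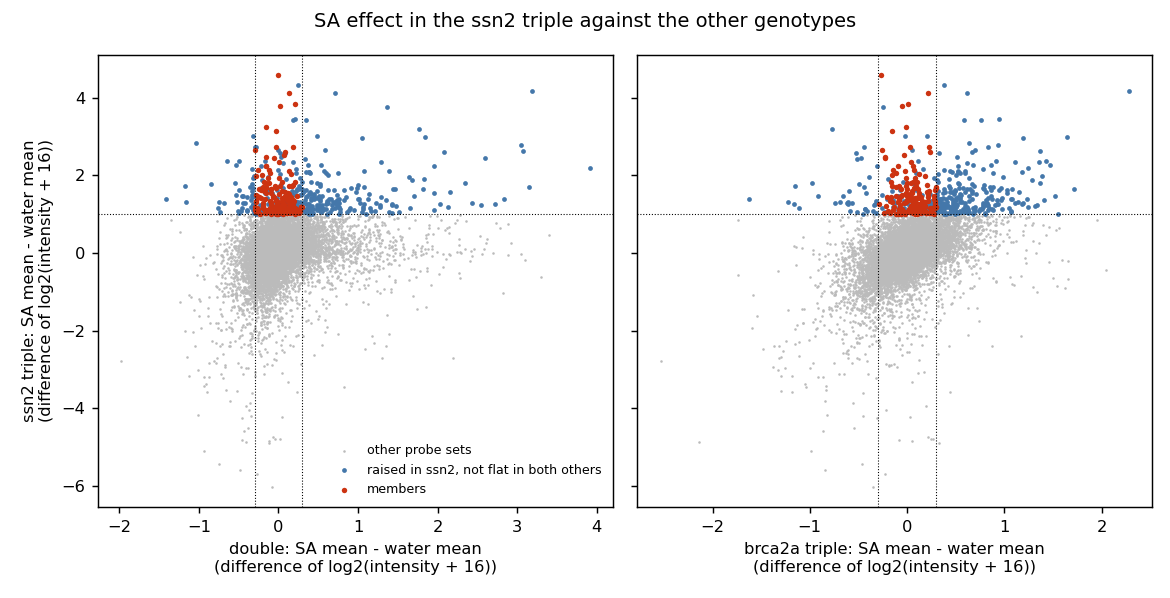
SA mean minus water mean on the log2(intensity + 16) scale for the 22746 probe sets, with the ssn2 triple on the y axis and the double (left) or the brca2a triple (right) on the x axis. Dotted lines mark the limits of the selection (1, and -0.3 and 0.3), red points are the 171 members, which lie above 1 and between the vertical lines by construction, and blue points are the 325 probe sets that rose by the same cut without being flat in both others.

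Members with the largest rises went from dim or moderate levels in water to bright ones after SA. The highest named member was AT3G62550, a universal stress protein family gene. Its intensity was 111, 99.9 and 104 in ssn2 water and 1983 and 2232 after SA, a difference of 4.13 ± 0.07 log2 units (SE, 3 water and 2 SA arrays). In the double it was 344, 972 and 364 in water replicates 1 to 3 and 566, 566 and 505 after SA. In the brca2a triple it was 401, 477 and 396 in water and 612, 326 and 599 after SA. The ssn2 groups did not overlap, both ssn2 SA arrays were above all 12 other arrays and all 3 ssn2 water arrays were below them. Its flatness in the double depended on 1 array: the SA difference was 0.13 with all arrays and 0.60 without water replicate 2.

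COR27 encodes a cold-regulated protein that represses genes in the circadian clock and in light signalling. Its intensity was 14.3, 15.03 and 13.1 in ssn2 water and 372 and 465 after SA, a difference of 3.84 ± 0.10. The other 12 arrays lay between 8.82 and 16.5, at the level of the ssn2 water arrays, and double water replicate 2 was the lowest of them. Its close relative AT4G33980 went from 6.42, 7.73 and 6.57 to 100 and 99.0 (2.33 ± 0.05), with 7.39 to 9.79 in the other 12 arrays. For these dim genes the offset of 16 understates the change.

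Among unnamed members, probe set 257985_at had the largest difference of all, 4.58. It read 32.8, 32.5 and 35.0 in ssn2 water, 1215 and 1119 after SA, and 27.0 to 43.7 elsewhere. Probe set 249850_at read 10.5, 8.25 and 9.06 in ssn2 water, 347 and 321 after SA, and 7.64 to 10.7 elsewhere (3.79). Both were raised in the 2 ssn2 SA arrays alone among the 17.

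**Figure D2:**
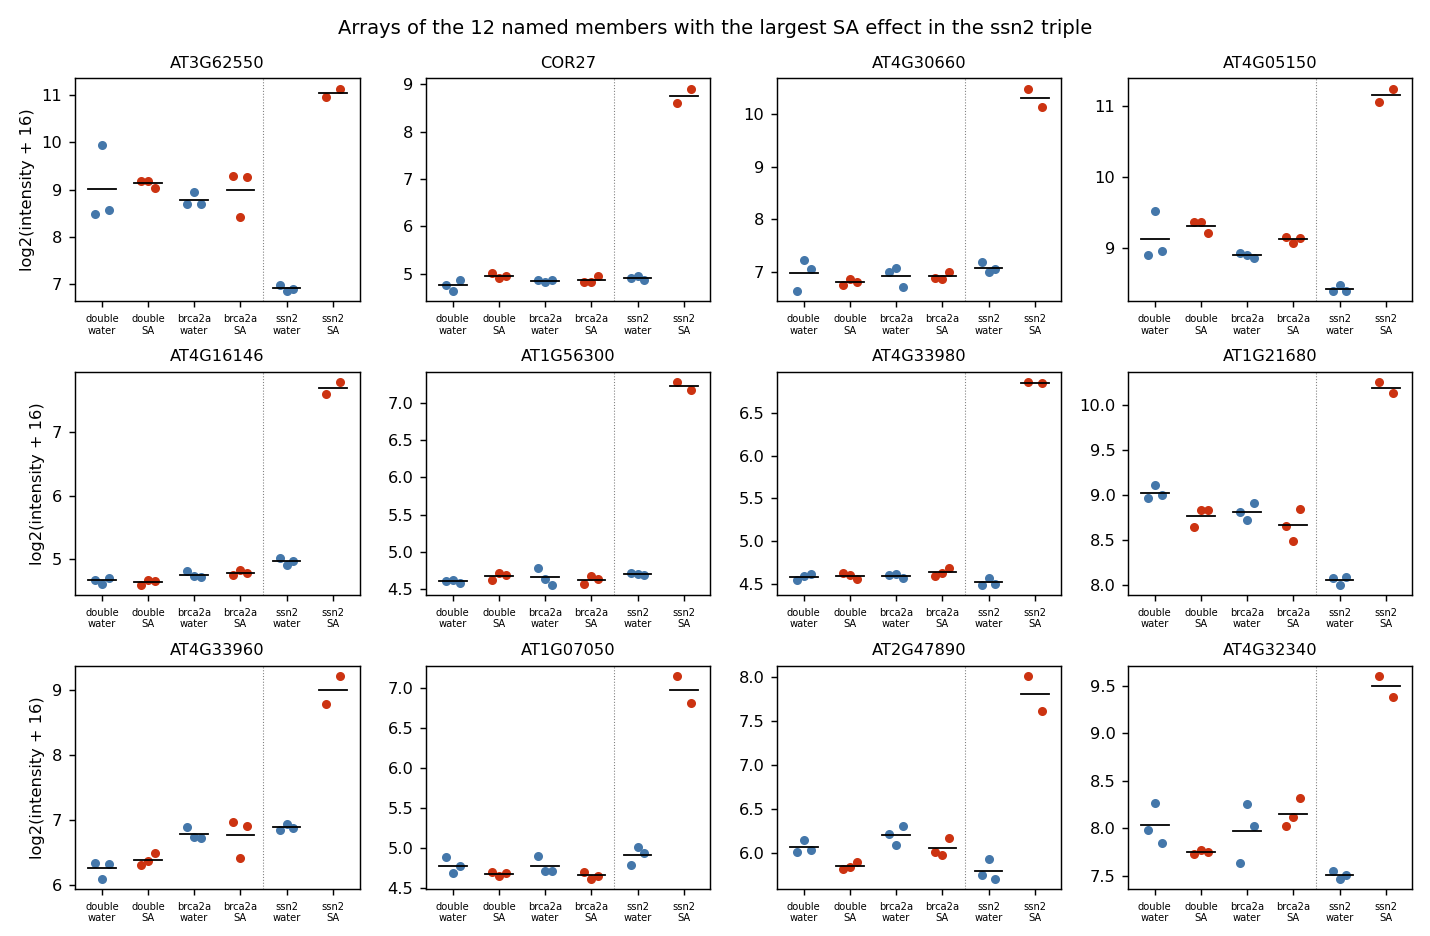
log2(intensity + 16) of the 12 named members with the largest SA difference in the ssn2 triple, 1 point per array (blue water, red SA) with group means as black lines; the dotted line separates the 2 tables, and each panel has its own y axis. AT3G62550 is lowest in ssn2 water, while COR27, AT4G16146, AT1G56300 and AT4G33980 sit near their ssn2 water level on all 12 other arrays. Double water replicate 2 is the highest of the 12 arrays left of the dotted line for AT3G62550, AT4G30660, AT4G05150 and AT1G21680.

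The roles below were assigned to named members after their values were seen, so they group the members without testing a theme. Besides COR27 and AT4G33980, 3 members code for proteins with a CCT motif, the domain shared by CONSTANS and clock-associated regulators. AT2G47890, which also has a B-box, went from 37.9, 45.3 and 36.4 to 241 and 179 (2.01 ± 0.13). AT1G07050 went from 11.7, 16.5 and 14.7 to 126 and 96.4 (2.06 ± 0.12). AT4G27900 went from 98.5, 77.9 and 95.5 to 245 and 245 (1.30 ± 0.09). The first of these CCT genes lay between 40.5 and 63.6 on the other 12 arrays and the second between 8.58 and 13.9. AT4G27900 read 252 in double water replicate 2, at the level of the ssn2 SA arrays, and 69.2 to 104 on the other 11.

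Members that act in transcription were the MYB-like AT5G08520 (1.59), the AP2/ERF factor AT1G64380 (1.53) and AT1G26665, a subunit of the Mediator complex (1.30). AT5G08520 went from 97.7, 94.8 and 97.3 in ssn2 water to 344 and 305, and read 121, 236 and 114 in the double's water replicates 1 to 3. Of 2 chromatin proteins, HIS1-3, a drought-inducible linker histone, went from 42.1, 43.6 and 33.7 to 161 and 196 (1.80 ± 0.11). The histone H2B gene AT2G28720 went from 22.0, 21.0 and 26.1 to 86.4 and 100 (1.49 ± 0.08).

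Among genes of starch, sugars and the chloroplast, DPE1, the plastid disproportionating enzyme of starch breakdown, went from 46.9, 51.1 and 59.0 to 236 and 176 (1.69 ± 0.13). Its 12 other arrays lay between 28.6 and 42.5. The sugar transporter AT5G61520 differed by 1.32, PIFI, a chloroplast protein of chlororespiration, by 1.33 and QQS, an orphan gene that affects starch content, by 1.11. Their ssn2 groups did not overlap, as the selection required. PIFI was bright throughout, at 751, 676 and 843 in ssn2 water and 1879 and 1972 after SA.

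Protease genes were among the brighter members. AT4G16190, a papain-type cysteine protease, went from 983, 939 and 927 to 3209 and 3491 (1.80 ± 0.06), while the other 12 arrays lay between 1497 and 1895, above its ssn2 water arrays and below its ssn2 SA arrays. SCPL49, a serine carboxypeptidase-like protein, differed by 1.26, NANA, a chloroplast aspartyl protease, by 1.09 and AT4G01610, a cathepsin B-like protease, by 1.04.

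Hormone genes included GID1A, a gibberellin receptor, at 92.9, 94.3 and 90.4 in ssn2 water and 186 and 229 after SA (1.03 ± 0.09). UGT71C5, which attaches glucose to abscisic acid, read 72.5, 67.0 and 77.8 in water and 140 and 214 after SA (1.10 ± 0.16), and its SA arrays were the more uneven. AT1G12010, an ACC oxidase of ethylene synthesis, differed by 1.19.

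Stress protein genes followed the same form at different levels. AT4G30660, an RCI2-like small membrane protein, went from 129, 112 and 118 to 1422 and 1113 (3.23 ± 0.11), with 83.5 to 134 in the other 12 arrays. AT1G56300, a DnaJ-type chaperone, went from 10.2, 10.1 and 9.79 to 139 and 128 (2.52 ± 0.05). A second universal stress protein gene, AT3G17020, was already bright in ssn2 water (902, 791 and 860) and reached 1755 and 2108 (1.16 ± 0.10).

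Genes of the cytoskeleton differed by 1.22 to 1.64. The actin-bundling LIM proteins WLIM2a and WLIM1 differed by 1.64 and 1.47. The beta-tubulin TUB5 went from 478, 483 and 466 in ssn2 water to 1085 and 1168 (1.22 ± 0.05), and read 498 in double water replicate 2 against 203 and 219 in the double's other water arrays. The peroxidase PRXR1 was the brightest of the members grouped by role, at 3397, 3186 and 3023 in ssn2 water and 6823 and 6432 after SA (1.05 ± 0.07), and the peroxidase AT5G64120 differed by 1.05.

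Further named members among the 25 largest were AT4G05150, with a PB1 domain (2.73), AT4G16146, related to cAMP-regulated phosphoproteins (2.72), AT1G21680, with a DPP6-like domain (2.14), and AT4G33960 (2.12). AT4G32340 differed by 1.98, AT5G62900 by 1.84, the malate channel family gene AT1G68600 by 1.71, AT1G68110 by 1.68, AT2G15830 by 1.66 and the F-box gene AT3G07870 by 1.65. AT1G33590, with leucine-rich repeats, differed by 1.56 and AT1G12845 by 1.53. Lower in the order were the enzymes BGLU44 (1.40), a beta-glucosidase, and UGT73B1 (1.33), a glycosyltransferase. The receptor-like kinase AT1G25320 was at 1.26 and the protein kinase WNK7 at 1.16.

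**Figure D3:**
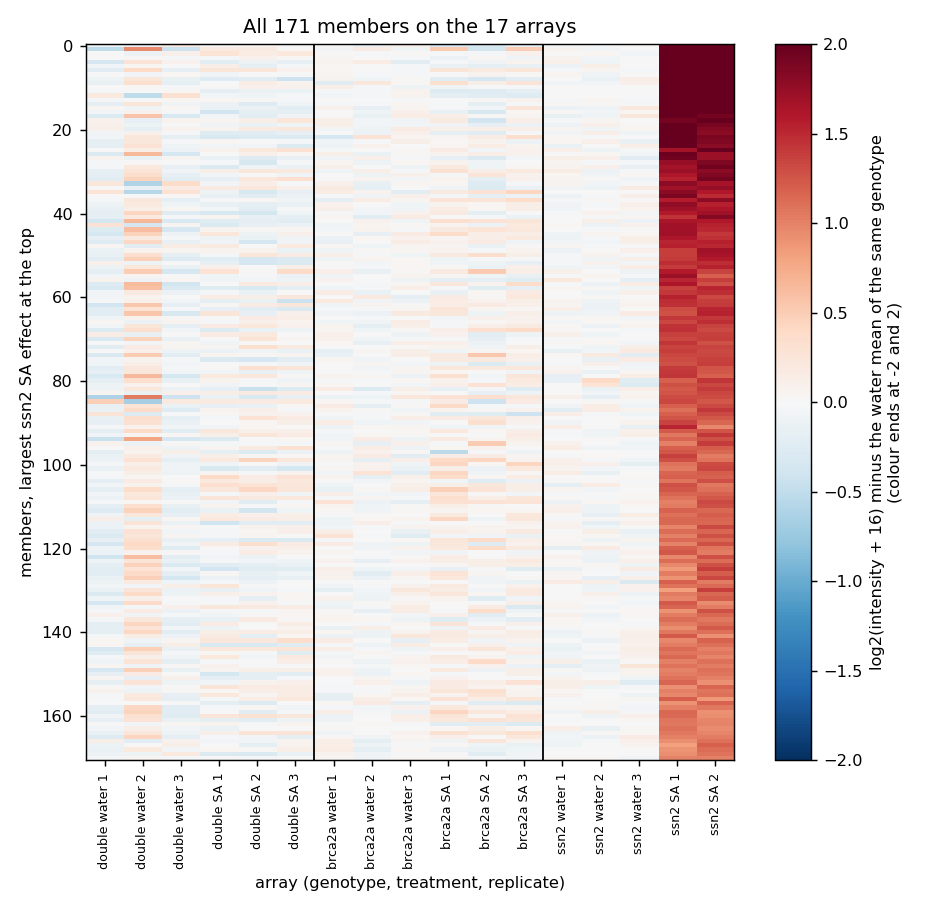
The 171 members (rows, largest ssn2 SA difference at the top) on the 17 arrays (columns), coloured by log2(intensity + 16) minus the water mean of the same genotype, with colours ending at -2 and 2. The ssn2 SA arrays are raised in every row by construction; among the other arrays, double water replicate 2 has the most raised rows.

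At the edges of the selection the values were continuous; the order is given among probe sets of a single gene. The members just inside the limit of the rise were AT2G39920 (1.001), LCR69 of the defensin-like family (1.01), AT2G16630 (1.01) and AT1G29270 (1.02), and just outside were AT1G67300 and TMT1 (0.995 and 0.989), AT5G07860 (0.985) and AT3G05220 (0.980). AT1G70780 (0.289), AT2G25510 (0.282), AT3G28940 (0.271) and AT4G19390 (0.232) were nearest inside the upper limit in the double, and AT1G13990 (0.357), AT4G33540 (0.383), COR15A (0.486) and TRM26 (0.519) nearest outside. At the lower limit, AT1G12010 (-0.294), AT4G14020 (-0.290), AT2G28720 (-0.287) and AT1G04990 (-0.284) were inside, and AT1G78460 (-0.307), AT2G40435 (-0.314), AT3G43270 and AT5G62350 (both -0.317) outside.

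In the brca2a triple, again among probe sets of a single gene, AT1G68110 (0.298), AT1G70780 (0.296), AT1G68600 (0.295) and WNK7 (0.289) lay nearest inside the upper limit. AT1G18470 (0.305), AT1G75370 and AT1G30260 (both 0.316) and AT5G44680 (0.322) lay outside it. SCPL49 (-0.288), AT5G39410 (-0.218), AT2G23910 (-0.202) and GID1A (-0.178) were nearest inside the lower limit, and AT2G21130 (-0.316), COR15B (-0.387), THIC (-0.426) and AT5G52450 (-0.427) outside it. The cold-regulated chloroplast protein genes COR15A and COR15B thus rose in the ssn2 triple by the same cut and were left out by the flat condition.

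Leaving out double water replicate 2 changed which genes met the rule more than leaving out any other array. The rule was then met by 147 probe sets, 135 of them among the 171. The members' SA difference in the double then ran from -0.476 to 0.600 with a median of 0.075; 31 members exceeded 0.3 and 5 fell below -0.3. Of all 18669 probe sets flat in both genotypes, 1.44% exceeded 0.3 and 3.59% fell below -0.3 in the same way, against 18.1% and 2.92% of the members. The word "only" in a description of these genes as raised only in ssn2 rests on this array for those 31. Among the 25 largest and the members grouped by role they were AT3G62550 (0.60 without the array), AT5G61520 (0.47), AT4G05150 (0.38), AT5G08520 (0.36), AT4G27900 (0.32), AT1G33590 (0.31) and TUB5 (0.31).

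The selection uses group means and does not by itself set how an array deviates from its group. The double's water mean includes replicate 2, however. Without that array 31 members exceeded 0.3 in the double and 5 fell below -0.3. The members' shares for this array are therefore in part a product of the selection. In double water replicate 2 the members lay above the mean of water replicates 1 and 3 by a median of 0.3002 log2 units, where the median of all probe sets was -0.0033. The members were highest in this array of the 3 in 129 cases, or 75.4%, against 38.4% of all probe sets. They lay over 0.3 above the other water arrays in 86 cases and over 0.3 below in 8, shares of 50.3% and 4.68%, against 10.4% and 10.6% of all probe sets. The 325 other probe sets raised in the ssn2 triple had a median of 0.587, and the 529 that fell there by the mirrored cut a median of -0.655. In the 9 arrays outside the double's water group the members' median deviation lay between -0.0483 and 0.0443. These are descriptions of 1 array with no replicate check, and the cause of its deviation was not tested.

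Single members showed this in different directions. AT4G27900 lay 1.55 log2 units above water replicates 1 and 3, AT3G62550 1.42, TUB5 1.18, AT5G61520 0.97 and AT5G08520 0.92. AT1G68600 lay below them, at -0.85, with 33.7 against 72.6 and 74.1. COR27 read 8.82 there against 11.3 and 13.1, and AT4G33980 8.06 against 7.39 and 8.54. Within the members the size of this deviation did not follow the size of the ssn2 difference (r = -0.0789 across 171 probe sets, as a description).

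**Figure D4:**
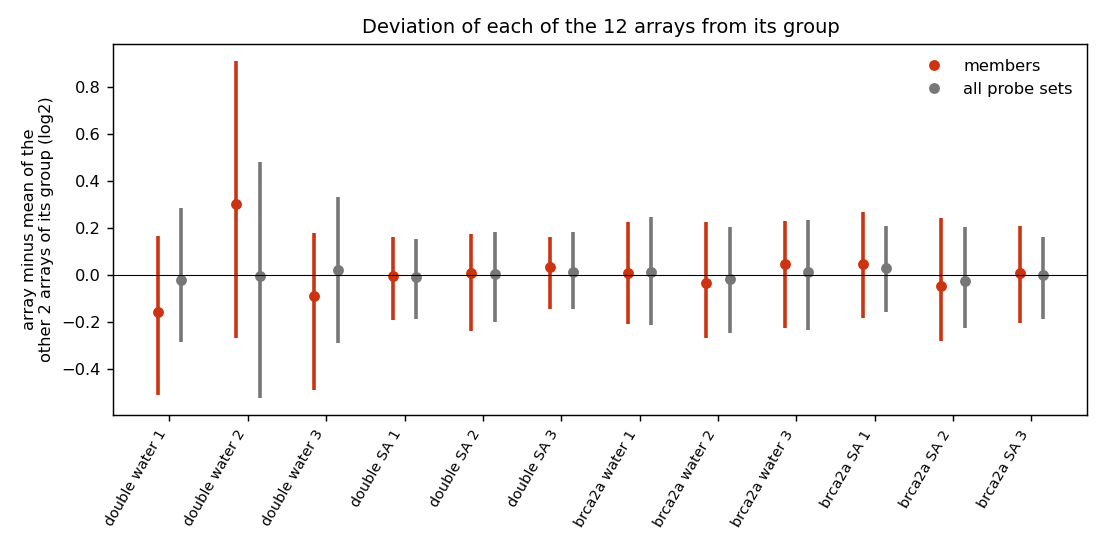
For every array in the table of 12, the deviation from the mean of the other 2 arrays of its group in log2 units, with the median (point) and the 5th to 95th percentile (line) over the 171 members (red) and over all probe sets (grey). Double water replicate 2 has a members' median of 0.3002 and an all-probe-set median of -0.0033; the mirrored shift of water replicates 1 and 3 follows from the shared group.

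Limma on the 12 arrays gives the background for the flat genotypes. With all arrays, 2 members were higher and 2 lower after SA in the double at an adjusted p under 0.05, where 4.94% and 2.54% of all probe sets were (7.47% in either direction). In the brca2a triple 0 members were higher and 2 lower at the adjusted threshold, where 2.61% and 2.04% of all probe sets were (4.65% in either direction). At an unadjusted limma p under 0.05, 10 members were higher there, a count given without a share over all probe sets. Without double water replicate 2, 31 members were higher and 7 lower in the double, where 9.33% and 10.3% of all probe sets were, and 10 were higher and 6 lower in the brca2a triple, where 7.84% and 7.52% were. Limma on the ssn2 arrays put all 171 members past the threshold, where 33.2% of all probe sets were (18.8% higher and 14.5% lower); since the rule used these contrasts, nothing is read from the members' counts.

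The brca2a triple and the double can be compared by a measure that the selection did not use, the average over both treatments (3 water and 3 SA arrays a genotype, limma, two-sided, Benjamini-Hochberg over 22746 probe sets). That average rests on the same 12 arrays as the flat condition. The double's water arrays were also more uneven than its SA arrays (members' median SD 0.202 against 0.0688), so the average is not fully independent of the selection. Of the members 5 passed (2.92%), 4 higher and 1 lower in the brca2a triple, against 3.18% of all probe sets, a share near the background at this threshold. Without double water replicate 2, 12 members and 5.74% of all probe sets passed. Among the 325 other probe sets raised in the ssn2 triple 44 passed (13.5%). With all arrays, an unadjusted limma p under 0.05 was found in 38 members (22.2%), in 39.1% of those 325 and in 15.8% of all probe sets. The members' genotype difference ran from -0.58 to 0.89 with a median of -0.017, where the median of all probe sets was 0.014.

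HIS1-3 was lower in the brca2a triple. It read 116, 141 and 105 in double water and 95.02, 114 and 108 in double SA, against 74.85, 67.4 and 62.8 in brca2a water and 80.1, 63.1 and 70.2 in brca2a SA. The genotypes did not overlap, and the average difference was -0.58 ± 0.08 log2 units (limma adjusted p = 0.0017). AT4G33960 was higher in the brca2a triple, at 103, 90.6 and 89.5 in water and 109, 69.0 and 105 after SA, against 65.0, 52.2 and 64.1 and 62.9, 66.5 and 74.0 in the double. The difference was 0.45 ± 0.09 (limma adjusted p = 0.028), and it passed the threshold no longer without any 1 of 7 arrays, the brca2a water replicates 1, 2 and 3, the brca2a SA replicates 1 and 3 and the double SA replicates 1 and 2, with limma adjusted p up to 0.079. Without double water replicate 2 the differences were -0.53 for HIS1-3 and 0.41 for AT4G33960 (limma adjusted p = 0.00058 and 0.027).

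The other members past the threshold have no listed gene and were named by probe set ID after their values were seen. Probe set 256589_at was higher in the brca2a triple by 0.89 ± 0.10 (limma adjusted p = 0.00056), with 424 to 471 in water and 416 to 516 after SA against 200 to 317 and 207 to 235 in the double. Probe set 258735_at was higher by 0.42 ± 0.08 (limma adjusted p = 0.015). Probe set 255331_at was higher by 0.15 ± 0.03 (limma adjusted p = 0.023), a call that ended without brca2a SA replicate 3, double SA replicate 1 or 2, or double water replicate 1, and with an offset of 1 or the series value table (limma adjusted p up to 0.067). Without double water replicate 2 the differences of 256589_at, 258735_at and 255331_at were 0.81, 0.48 and 0.15 (limma adjusted p = 3.7e-05, 0.0010 and 0.024).

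The members' levels in ssn2 water spanned the range of the array. Their mean intensity there had a median of 101, from 6.91 to 4069, and after SA a median of 314. Of the members 10 had a water mean under 16 (5.85%, against 28.5% of all probe sets), 48 lay between 16 and 64 and 11 exceeded 1000. The SD of the double's water arrays had a median of 0.202 log2 units over the members and 0.0938 over all probe sets, while the SDs of the ssn2 water arrays were closer (0.0896 and 0.0639).

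Set against the other table, both ssn2 SA arrays were above all 12 other arrays in 150 members (87.7%, against 16.1% of all probe sets). The ssn2 water arrays were all below the 12 in 57 members (33.3%, against 15.8%), all above them in 24 (14.0%, against 13.4%) and all within their range in 51 (29.8%, against 37.2%). In 37 members (21.6%, against 0.699% of all probe sets) both held, water below and SA above the 12, as in AT3G62550, AT4G05150, AT1G21680 and AT4G16190. In 11 members (6.43%, against 39.4% of all probe sets) both ssn2 SA arrays were within the range of the 12, and in 10 of these all 3 ssn2 water arrays were below the 12. AT4G27900, the exception, was within range through double water replicate 2. In 1 member (0.585%, against 18.1% of all probe sets), AT5G60710, named after its values were seen, both ssn2 SA arrays lay below the 12. UGT73B1 read 45.3, 51.8 and 43.9 in ssn2 water, 137 and 149 after SA and 113 to 146 in the 12. The selection itself favours high ssn2 SA and low ssn2 water levels, so these shares are descriptions and nothing is read from their distance to all probe sets. Without double water replicate 2, a comparison added after seeing the data, both SA arrays were above the other 11 in 158 members, all water arrays below them in 57, both held in 44 and both SA arrays were within their range in 5. The shares of all probe sets against these 11 arrays are not given here, so nothing is read from the change in the counts.

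**Figure D5:**
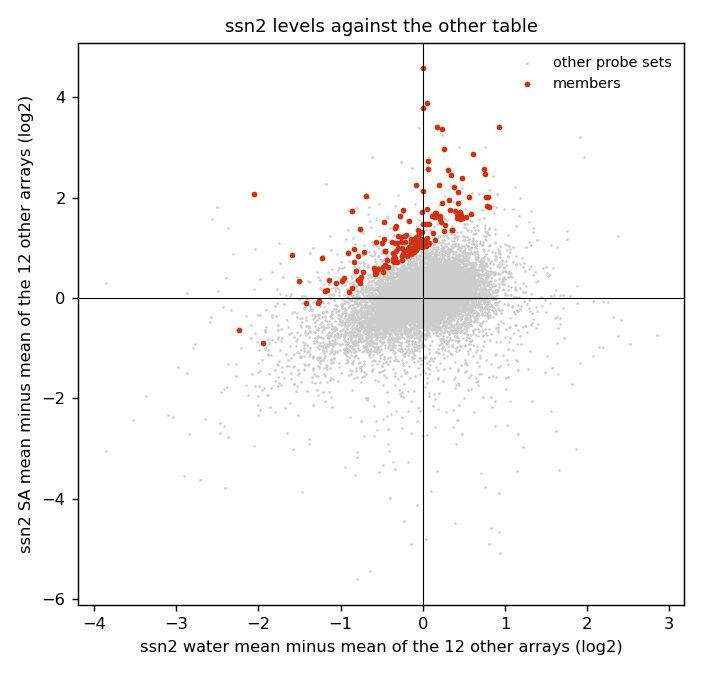
Mean log2(intensity + 16) of the ssn2 triple minus the mean of the other table, with water on the x axis and SA on the y axis, for members (red) and other probe sets (grey). Members lie above the diagonal by construction and spread from water levels below those of the other table (left) to above them (right), with a median of -0.130 in water and 1.11 after SA; table and genotype cannot be told apart.

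The 95 named loci lay on all 5 chromosomes, with 26, 16, 16, 20 and 17 on chromosomes 1 to 5. The shares were 27.4%, 16.8%, 16.8%, 21.1% and 17.9%, against 25.7%, 16.3%, 20.5%, 14.5% and 22.4% of all named loci. In the gene order of RefSeq 9 pairs of member loci had under 10 genes between them. AT4G33960 and AT4G33980 had 1 gene between them, as had AT2G39900, which is WLIM2a, and AT2G39920. No family named by a symbol stem reached 3 members: UGT genes gave 2 of 47 measured.

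Pathway genes from lists compiled for this tissue and hormone give the setting of the members. None of the 67 measured list genes was a member, where 0.752% of all probe sets were, so nothing is read from this count. A list gene counts as measured where a probe set carried its name. The platform annotation did not list 8730 probe sets, 75 members among them, and these could not be matched to the lists. In the ssn2 triple 21 of the 67 were higher and 13 lower after SA (limma, adjusted p under 0.05), where 18.8% and 14.5% of all probe sets were, which is also the background of each list below. All 3 measured genes of the cold, drought and abscisic acid list were higher. COR15A read 91.4, 90.6 and 93.5 in ssn2 water and 751 and 982 after SA, a difference of 3.02 ± 0.11 (limma adjusted p = 1.6e-05). On the other 12 arrays COR15A read 148 to 1856, a range that holds its ssn2 SA arrays and lies above its ssn2 water arrays. COR15B differed by 1.96 and COR47, a dehydrin, by 0.53. All 3 measured genes of the dark and sugar starvation list, for mitochondrial leucine breakdown, were higher as well, IVD by 0.60, MCCA by 0.57 and MCCB by 0.47.

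Of the 22 genes in the circadian clock list 1 was matched by name, GI, and it fell. It read 279, 295 and 212 in ssn2 water and 28.5 and 35.4 after SA, a difference of -2.53 ± 0.14 (limma adjusted p = 7.9e-05). On the other 12 arrays it read 54.2 to 116; double water replicate 2 was the lowest of them, at 54.2 against 98.3 and 94.0 in water replicates 1 and 3. GI is expressed in a daily rhythm in Arabidopsis. The hour of sampling of each array is not given in the labels, and its part in the members' rise was not tested.

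Of 5 measured SA response genes, 1 was higher in the ssn2 triple, UGT76B1 by 0.30, and its call ended without ssn2 SA replicate 2 (limma adjusted p = 0.054). GRX480, a glutaredoxin, read 20.5, 16.0 and 26.6 in ssn2 water and 22.3 and 25.1 after SA, and WRKY53, a transcription factor, read 20.2, 23.1 and 21.4 and then 23.3 and 29.7. Their groups overlapped in GRX480 and were close in WRKY53, with differences of 0.11 ± 0.12 and 0.17 ± 0.08 that did not pass (limma adjusted p = 0.59 and 0.16).

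Of the touch and early stress list 1 of 4 measured genes was lower, the zinc finger gene STZ at -2.70. The jasmonate list had 1 of 4 higher (THI2.1, 0.32) and 1 lower (JMT, -1.13). The iron list had 2 of 3 higher, BHLH101 by 1.32 and AT1G47400 by 0.84, and PYE lower at -0.41. The heat shock list had 0 of 4 higher and 2 lower, with AT5G51440 at -1.85.

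Photosynthesis genes were bright on all arrays, and 5 of the 8 measured marker genes passed the threshold in the ssn2 triple. The 4 measured of 24 photosynthesis genes summed to 23781 to 24807 intensity units in ssn2 water and 20827 to 21447 after SA; LHCB4.2 fell by 1.63, PORB was higher by 0.97 and RCA differed by -0.09 (limma adjusted p = 0.44). LHCB4.1 was higher by 0.26, in a call lost under 9 of 12 alternatives, among them leaving out either ssn2 SA array or water replicate 1 or 2. The 2 measured of 4 guard cell markers summed to 605 to 685 in ssn2 water and 242 to 270 after SA, with AT1G22690 at -1.62 and FMA at -0.20 (limma adjusted p = 0.20). The 2 measured of 8 root markers summed to 977 to 983 in water and 690 to 728 after SA, with PYK10 at -0.47 and EXPA7 at 0.06 (limma adjusted p = 0.66). No flower or seed marker was measured by name. The lowest intensity of any probe set was 3.92, so a marker reading above 0 does not show that its cell type was present. The part of tissue makeup in the members' rise was not tested.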

How the data were processed

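Labelled RNA from 17 samples was hybridised to 1-colour ATH1 arrays. The deposited files hold linear intensities, 1 per probe set and array, in separate tables of 12 and 5 arrays. The tool listed per the submitters' processing notes is PLIER; version, settings and genome build are unstated in the sources read here. The deposited log2 values of the series value table served only as an alternative. Intensities ran from 3.92 to 14773. Here they were transformed as log2(intensity + 16), without AFFX control probe sets and without a filter, and fitted per table with limma 3.58.1 in R 4.3.3 on group means, with Benjamini-Hochberg adjustment over 22746 probe sets; each fit was tested on simulated data. The number of arrays limits the precision.

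The members, the 26 gene lists and the comparisons were chosen with earlier results of these data known. Genes named are the 25 single-gene members with the largest ssn2 difference, the 4 nearest each limit and members past the threshold between genotypes. The 2 highest unlisted members and list genes past the threshold are also named, though not all of those list genes. The role groups were added after values were seen. Gene names came from the platform annotation (13513 probe sets with 1 gene, 503 with several, 8730 not listed), of which 13484 matched RefSeq TAIR10.1. Sequences and promoter motifs were not analysed here.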

Additional observations from a re-analysis of the deposited data

How the results depend on the processing

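The number of probe sets meeting the selection was 171 and stayed within 1.5 times of that under every alternative run: 207 with an offset of 1 (143 of the 171 among them), 122 with an offset of 64 (93), 156 after median centring (144), 154 after quantile normalization (149), 207 from the series value table (143) and 119 in the brighter probe sets (119). Leaving out 1 array gave 147 to 178. The brca2a against double average called 723 probe sets, 17 in water arrays only, 970 in SA arrays only, 450 in the brighter probe sets, 1305 without double water replicate 2, and 490 to 1305 over all single arrays left out. Members called numbered 5, 0 in water arrays only, 3 in SA arrays only, 3 without brca2a SA replicate 3, and 3 to 12 over single arrays left out. In water arrays only, 24 of the 171 members had an unadjusted limma p under 0.05, as had 2622 of all 22746 probe sets. The causes were not tested. The ssn2 fit called 7558 and 5899 to 7091 without 1 array. Over 46 named members, 492 recomputed ssn2 differences included 0 reversals (0.67 to 4.88), and 182 moved by over 1 SD. The selection placed both SA arrays above all water arrays, so leaving out an array or changing the offset could not reverse a sign. Of 34 list genes past the threshold in the ssn2 triple, 25 stayed past it under every alternative. Same-numbered arrays did not deviate together (r between -0.327 and 0.157 in the 12 arrays, 1 of 18 pairs over 0.1, and own number correlating best in 10 of 36), so the numbers do not pair them. With the replicate block the average called 726 probe sets and 6 members, and the ssn2 fit 7001. With 2 SA arrays in the ssn2 triple, single members have little replicate support.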
